A study of Mus musculus with 6 samples.

Results

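The genes described here are 10 subunits of the SWI/SNF chromatin remodelling complex, Smarcb1, Smarca4, Smarca2, Smarcc1, Smarcc2, Smarcd1, Smarcd2, Smarce1, Arid1a and Arid2, measured in murine pre-B cells 2 hours after ionizing radiation. They were found by symbol in the annotation of the array's platform, which gives them 26 of the array's 45037 probe sets without controls. On this array several short oligonucleotides, placed towards the 3' end of a transcript, form a probe set and are read as 1 signal. Of the 26, 21 probe sets reached a signal of 100 on at least 1 of the 6 arrays and were tested among 21762 probe sets, and all 10 genes had at least 1 of them. The other 5, of Smarcb1, Smarcc1, Smarcd1, Smarce1 and Arid2, lay between 1.30 and 59.2 on every array and were not tested.

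The irradiated group (1 Gy) was 3 arrays of cells exposed to γ-rays from a cesium source at 0.72 Gy per minute, and the mock-irradiated group (0 Gy) was 3 arrays of the same 3 cell lines. All 6 arrays were of wild type, v-abl-transformed pre-B cells that also carry an Eμ-Bcl2 transgene, kept in 3 μM STI-571 for 48 hours. The v-Abl kinase holds lymphocyte precursors in a dividing pre-B state, STI-571 (imatinib) blocks that kinase and arrests the cells in G1, and the Bcl2 product, driven by an immunoglobulin heavy chain enhancer, counters apoptosis. The lines were derived independently from different mice, and the replicate number marks the line. With the line as a block, the p-values for dose rest partly on how the difference between doses varies from line to line. They also rest on the spread over all tested probe sets, since limma draws the variance of each towards a common value. A standard error or interval is thus not the spread between the 3 lines alone. The p-values speak for lines of transformed cells and not for animals.

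SWI/SNF complexes use ATP to slide or evict nucleosomes and so open DNA to transcription factors and repair proteins. The canonical BAF and PBAF types hold an ATPase, Smarca4 (BRG1) or Smarca2 (BRM), on a core of Smarcc1, Smarcc2 and Smarcb1 (SNF5, INI1). Smarcd1, Smarcd2 and Smarce1 are accessory subunits. An ARID protein tells these types apart, Arid1a in canonical BAF and Arid2 in PBAF. In mice Smarca4 is needed for early B cell development, and in humans SMARCB1 is a tumour suppressor whose loss marks rhabdoid tumours.

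The sequence before the start site of Smarcb1, Smarca4 and Smarca2 is given here because these genes had the lower signals described below, and they were picked for display after those values were seen. The sequences are the 250 bases upstream of the start site in RefSeq on GRCm38.p6, written 5′ to 3′ on the strand of the gene, with GC boxes (GGGCGG or its reverse complement) and AP-1 sites (TGACTCA or its reverse complement) in capitals. Smarcb1 lies at chr10:75921615-75921864 on the minus strand, Smarca4 at chr9:21615919-21616168 on the plus strand and Smarca2 at chr19:26604910-26605159 on the plus strand.
Smarcb1: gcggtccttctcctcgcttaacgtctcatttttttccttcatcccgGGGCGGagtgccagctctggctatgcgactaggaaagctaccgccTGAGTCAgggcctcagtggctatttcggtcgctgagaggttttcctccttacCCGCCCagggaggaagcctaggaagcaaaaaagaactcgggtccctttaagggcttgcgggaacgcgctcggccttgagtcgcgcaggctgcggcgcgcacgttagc
Smarca4: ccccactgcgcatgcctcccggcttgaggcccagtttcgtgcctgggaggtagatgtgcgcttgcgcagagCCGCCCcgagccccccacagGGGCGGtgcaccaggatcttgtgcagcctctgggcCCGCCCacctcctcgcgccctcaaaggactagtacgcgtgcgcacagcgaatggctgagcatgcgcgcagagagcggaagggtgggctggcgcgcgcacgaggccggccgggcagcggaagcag
Smarca2: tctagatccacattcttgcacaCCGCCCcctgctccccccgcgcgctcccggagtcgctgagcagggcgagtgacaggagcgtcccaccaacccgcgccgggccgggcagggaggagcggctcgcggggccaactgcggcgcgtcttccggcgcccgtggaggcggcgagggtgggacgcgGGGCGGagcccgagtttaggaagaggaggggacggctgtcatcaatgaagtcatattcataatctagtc
The Smarcb1 window holds 2 GC boxes and 1 AP-1 site, the Smarca4 window 3 GC boxes and the Smarca2 window 2 GC boxes. RefSeq windows were matched for 8 of the 10 members, 9 windows in all, since Arid1a has 2. Windows of Smarce1 and Arid2 were not used here. A GC box was present in 8 of the 9 windows, against 32.74% of 32851 windows of all genes. The member windows were mostly rich in CG pairs, with 21 in Smarcb1, 25 in Smarca4 and 28 in Smarca2. The range was 4 (Smarcd2) to 40 (Smarcc2), against a median of 6 over all windows. The part of base composition in the motif counts was not tested. The ETS site CCGGAA was in 4 of 9 (12.03% of all windows), the TATA box TATAAA in 1 of 9, that of Smarcd2 (12.37%), and the AP-1 site in 1 of 9 (4.463%). No member window held CCAAT (33.85% of all), the E-box CACGTG (6.021%), the CRE TGACGTCA (1.546%), a p53 motif (7.126%) or an NF-κB site (3.899%). Both strands were searched, no searched motif contains another, and a match describes letters in the window only.

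Smarcb1 fell after irradiation on both of its tested probe sets, to about 66% and 51% of the mock level. Its brighter probe set, 1416045_a_at, gave signals of 1050, 1136 and 1043 in lines 1, 2 and 3 at 1 Gy, against 1783, 1703 and 1434 in the same lines at 0 Gy. Every irradiated line was below every mock-irradiated line, and the 3 irradiated signals lay closer together than the mock-irradiated ones, at 1076 ± 51.7 and 1640 ± 183 (SD, n = 3 each). The log2 fold change was -0.60 (SE 0.12, 95% interval -0.93 to -0.27), or 65.8% of the 0 Gy level, with an adjusted p of 0.0396 by limma with the line as a block. Without the block the adjusted p was 0.0757, and the call was lost. Smarcb1 was picked with its change in these same arrays known, so that these values are no fresh test of it.

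The second Smarcb1 probe set, 1435856_x_at, gave 151, 212 and 134 at 1 Gy, against 256, 543 and 230 at 0 Gy. Again the doses did not overlap, and line 2 was the highest at both doses. Its log2 fold change was -0.97 (SE 0.17, 95% interval -1.41 to -0.52), or 51.2% of the 0 Gy level, with an adjusted p of 0.0293 by limma, and 0.200 without the block. The suffix x marks probes that can bind other transcripts too, so that this signal is less surely that of Smarcb1. Leaving out line 1, 2 or 3 ended the call of the brighter probe set each time (log2 fold change -0.67 to -0.52, adjusted p 0.113 to 0.135 by limma). The arrays also differed in the ratio of the 3' to the 5' control probes of actin, 1.26 to 1.38 at 1 Gy and 1.40 or above at 0 Gy, while the Gapdh ratios at 1 Gy lay within the range of those at 0 Gy. The part of RNA quality in the Smarcb1 result was not tested, and fewer cells with the transcript and less transcript per cell cannot be told apart in such bulk RNA.

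**Figure D1:**
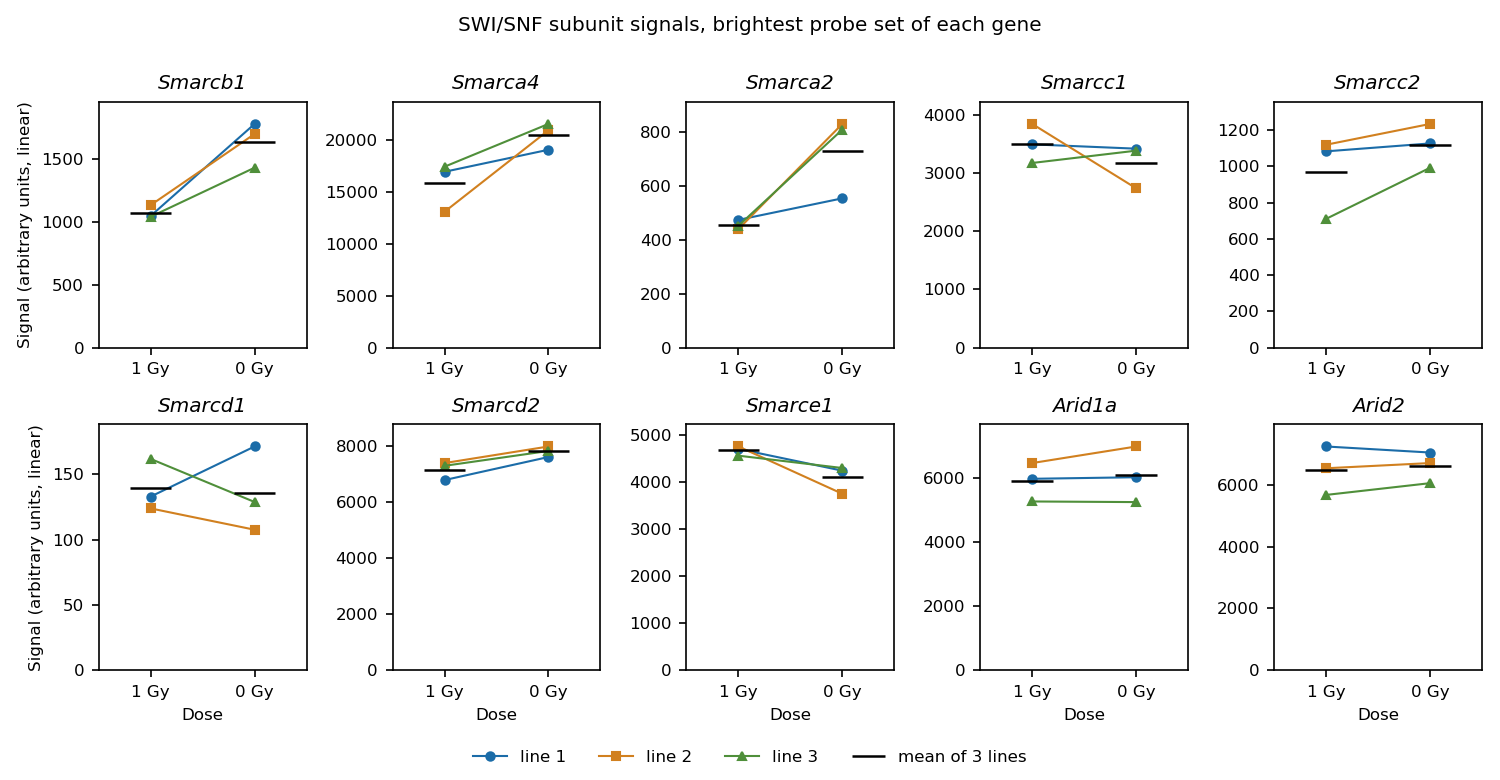
Linear signal (arbitrary units, y axis from 0, scaled for each gene) of the brightest probe set of each member at 1 Gy (left) and 0 Gy (right), with a point for each array, a line joining the 2 arrays of a cell line and a bar at the mean of the 3 lines. The signals of Smarcb1, Smarca4 and Smarca2 at 1 Gy lie below all those at 0 Gy, those of Smarce1 lie above, and those of Arid1a and Arid2 differ more between lines than between doses.

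The ATPase genes had lower signals in every irradiated line, and no probe set of theirs passed the test. Smarca4 on 1426804_at gave 16926, 13074 and 17416 at 1 Gy, against 19049, 20920 and 21533 at 0 Gy. The drop was widest in line 2, and the doses did not overlap. The log2 fold change was -0.38 (SE 0.15, 95% interval -0.78 to 0.01), with an adjusted p of 0.142 by limma. The other Smarca4 probe set, 1426805_at, gave 6087, 5889 and 4742 at 1 Gy and 8292, 6619 and 7198 at 0 Gy, again without overlap but with the smallest difference in line 2. Its log2 fold change was -0.41 (SE 0.14, interval -0.77 to -0.04), with an adjusted p of 0.110 by limma. The 2 probe sets thus placed the order of the lines differently for a difference of about the same size.

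Smarca2 on 1430526_a_at gave 473, 439 and 451 at 1 Gy, against 553, 829 and 808 at 0 Gy. The irradiated signals were nearly equal, and the mock-irradiated signal of line 1 stood below the other two. The log2 fold change was -0.66 (SE 0.18, interval -1.14 to -0.18), with an adjusted p of 0.0716 by limma. The probe set 1452333_at gave 250, 257 and 164 at 1 Gy, against 383, 305 and 291 at 0 Gy. Here too no irradiated line reached a mock-irradiated one, with a log2 fold change of -0.56 (SE 0.16, interval -0.98 to -0.15) and an adjusted p of 0.0732 by limma. The estimates for Smarca2 were close to that of the brighter Smarcb1 probe set, with larger standard errors. Whether the changes of Smarcb1, Smarca4 and Smarca2 differ from each other was not tested. All 6 tested probe sets of the 3 genes were lower in each of the 3 lines, a grouping made after the values were seen. Of all tested probe sets, 34.5% were lower in all 3 lines, and 17.1% had every irradiated signal below every mock-irradiated one.

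The scaffold genes Smarcc1 and Smarcc2 gave no call. Smarcc1 on its brightest probe set, 1423416_at, had signals of 3500, 3852 and 3180 at 1 Gy, against 3426, 2743 and 3392 at 0 Gy, and its doses overlapped, with line 2 alone showing a clear difference. The log2 fold change was 0.14 (SE 0.16, interval -0.28 to 0.57), with an adjusted p of 0.559 by limma. The probe sets of Smarcc1 disagreed, as 1455246_at had a log2 fold change of -0.07 (SE 0.12) and 1423417_at one of 0.68 (SE 0.34, interval -0.22 to 1.57). The last gave 613, 846 and 355 at 1 Gy and 717, 316 and 199 at 0 Gy, lower in irradiated line 1 and higher in irradiated lines 2 and 3. Smarcc2, with 1 probe set, gave 1082, 1119 and 710 at 1 Gy, against 1126, 1233 and 991 at 0 Gy. It was lower within each line, by an amount that line 3 dominated, and the doses overlapped (log2 fold change -0.23, SE 0.14, interval -0.59 to 0.14, adjusted p 0.303 by limma).

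Among the accessory subunits, the intervals of the brightest probe sets spanned 0. Smarcd1 gave 133, 124 and 162 at 1 Gy, against 171, 108 and 129 at 0 Gy, so that line 1 went against lines 2 and 3. These signals lay close to the minimum of 100, and the log2 fold change was 0.06 (SE 0.18, interval -0.42 to 0.53). Smarcd2 on 1448400_a_at gave 6770, 7375 and 7278 at 1 Gy, against 7591, 7966 and 7807 at 0 Gy. Its irradiated signals all lay below the mock-irradiated ones, but by little, with a log2 fold change of -0.13 (SE 0.11, interval -0.42 to 0.17) and an adjusted p of 0.454 by limma. Its other probe sets, 1448401_at and 1426192_at, overlapped between doses, at -0.04 and -0.17. Smarce1, which binds DNA through an HMG domain, gave 4703, 4754 and 4559 on 1422675_at at 1 Gy, against 4240, 3749 and 4297 at 0 Gy. This was the only member probe set with every irradiated signal above every mock-irradiated one, and the adjusted p was 0.310 by limma (log2 fold change 0.19, SE 0.12, interval -0.13 to 0.51). Its other probe set, 1422676_at, had a log2 fold change of -0.01 (SE 0.13).

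No ARID probe set passed the test, and the estimates lay between -0.05 and 0.03. Arid1a on 1448709_at gave 5982, 6474 and 5273 at 1 Gy, against 6031, 6992 and 5253 at 0 Gy. Line 2 was highest and line 3 lowest at both doses, and the log2 fold change was -0.04 (SE 0.11, interval -0.33 to 0.26). Arid2 on 1426525_at gave 7257, 6551 and 5685 at 1 Gy, against 7061, 6719 and 6067 at 0 Gy. Line 1 was highest and line 3 lowest at both doses, with a log2 fold change of -0.03 (SE 0.11, interval -0.33 to 0.27). The remaining probe sets, 1417440_at of Arid1a and 1434506_at and 1454990_at of Arid2, lay at 0.03, -0.02 and -0.05. Scaling the arrays to a common median turned the sign of 1448709_at of Arid1a, 1426525_at and 1434506_at of Arid2, 1422676_at of Smarce1 and 1448401_at of Smarcd2, so that no direction can be given for them. The intervals of the members other than Smarcb1, Smarca4 and Smarca2 ran from -0.74 to 1.57 over their 15 probe sets, and their adjusted p from 0.221 to 0.955 by limma.

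**Figure D2:**
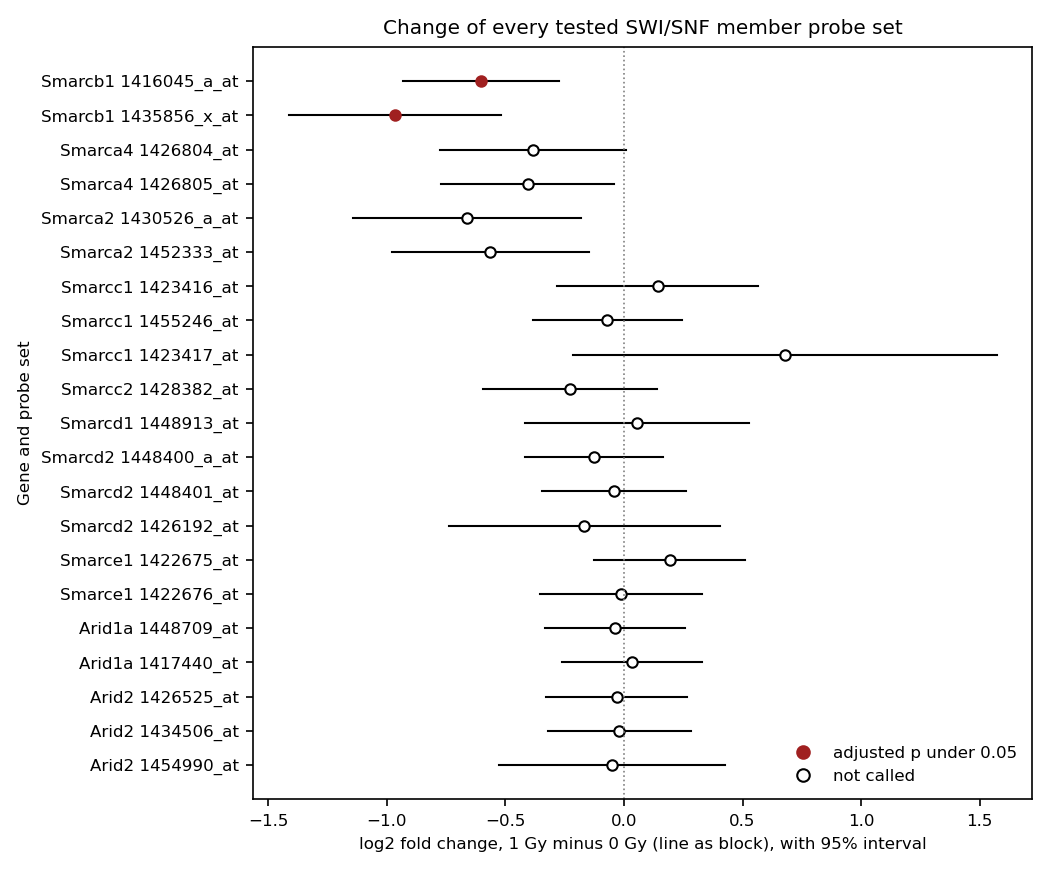
Log2 fold change at 1 Gy minus 0 Gy (x axis) of the 21 tested member probe sets (y axis), with 95% intervals from limma with the line as a block, filled where the adjusted p is under 0.05. Both filled points are Smarcb1 (-0.60 and -0.97), and the widest interval, -0.22 to 1.57, is that of 1423417_at of Smarcc1.

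Over the 10 members, 1 gene fell and 0 rose, counted on the brightest probe set, against 14.7% and 6.62% of all 9678 genes tested. Over the 21 probe sets, 2 fell (9.52%) and 0 rose, against 11.5% and 6.78% of all 21762. These shares are near or under the background and are no result about SWI/SNF as a group. At an unadjusted p under 0.05 the count was 5 of 21 lower and 0 higher, against 22.8% and 13.8% of all probe sets, and without the block 0 member probe sets were called, against 2.55% of all probe sets called lower. The median log2 fold change was -0.05 over the member probe sets and -0.06 over all tested probe sets. Every irradiated signal lay below every mock-irradiated one for 7 of the 21 (33.3%), against 17.1% of all probe sets, and above for 1, against 12.8%. A lower signal in all 3 lines was found for 8 of the 21 (38.1%), against 34.5%. Probe sets of 1 gene measure the same transcripts, so that 6 of the 7 come from 3 genes.

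In a test of the difference between lines, 0 of 21 member probe sets were called, against 8.6% of all probe sets, and 1 had an unadjusted p under 0.05, against 29.4%, the Smarcb1 probe set 1435856_x_at (adjusted p 0.0937 by limma). With a trend in the variance prior, that probe set and 1423417_at of Smarcc1 were called, with adjusted p of 0.0438 to 0.0464 by limma. Within lines, the log2 difference of Smarcb1 was -0.76 in line 1, -0.58 in line 2 and -0.46 in line 3. That of Smarca4 was -0.17, -0.68 and -0.31 in lines 1, 2 and 3, and that of Smarca2 was -0.22, -0.92 and -0.84. These are the brightest probe sets, with 1 pair of arrays per line, and the other probe sets ordered the lines differently. The log2 differences in lines 1, 2 and 3 were -0.76, -1.36 and -0.78 on 1435856_x_at of Smarcb1, -0.45, -0.17 and -0.60 on 1426805_at of Smarca4, and -0.62, -0.25 and -0.83 on 1452333_at of Smarca2. No line thus had the widest drop on both probe sets of any of these 3 genes.

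**Figure D3:**
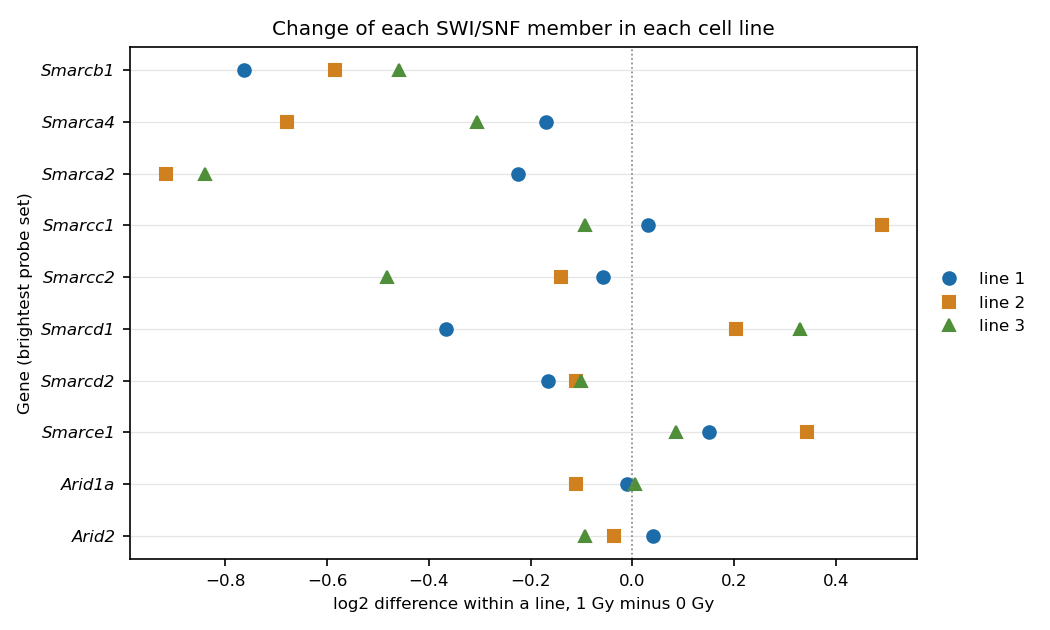
Log2 difference within each line, 1 Gy minus 0 Gy (x axis), for the brightest probe set of each member (y axis), with a symbol for each of the 3 lines. All 3 symbols lie left of 0 for Smarcb1, Smarca4, Smarca2, Smarcc2 and Smarcd2 and right of 0 for Smarce1, and Smarcb1 ranges from -0.76 to -0.46.

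The genes whose signals followed Smarcb1 most closely over the 6 arrays were Kmt5c, a histone methyltransferase (Pearson's r 0.997), Cisd1, an iron-sulfur protein of the outer mitochondrial membrane (0.994), Vps36, a subunit of the ESCRT machinery (0.992), Snx25, a sorting nexin (0.989), and Nsmce4a, a subunit of the SMC5/6 complex (0.987). These are the 5 highest values among the genes tested, and the arrays share lines and doses, so that they are given as a description.

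Among 21 other SWI/SNF subunits, 16 had a tested probe set. On the brightest probe set of each, 1 rose (6.25%), 0 fell and 15 did not pass the test, beside 6.62% of all genes called higher and 14.7% lower. Bcl7a was not called on its brightest probe set (log2 fold change -0.49, adjusted p 0.0967 by limma), but 1 of its 3 tested probe sets was called lower. The gene that rose was Bcl11a, a zinc finger transcription factor of B lymphoid cells that is also found in SWI/SNF complexes. Its signals on 1456632_at were 8567, 5487 and 9007 at 1 Gy, against 3875, 1733 and 3062 at 0 Gy. The doses did not overlap, and line 2 was lowest at both. The log2 fold change was 1.45 (SE 0.15), with an adjusted p of 0.0144 by limma and 0.0808 without the block, and all 6 of its tested probe sets were called higher. The median of the 16 genes was -0.06 on the log2 scale, against -0.11 over all genes.

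The other remodellers held calls in both directions, as did all genes tested, with 6.62% called higher and 14.7% lower. Of 10 tested ISWI genes 1 rose and 1 fell, which were the bromodomain genes Baz2b (0.81, SE 0.12, adjusted p 0.0205 by limma) and Baz2a (-0.63, SE 0.12, adjusted p 0.0354). Of 20 tested CHD and NuRD genes 2 rose (10%) and 3 fell (15%) on the brightest probe set. Gatad2a, not called on its brightest, was called higher on 1 of its 5 tested probe sets. Chd4, the ATPase of NuRD, gave 7446, 6489 and 8371 at 1 Gy, against 3332, 3209 and 3416 at 0 Gy, a rise in every line (log2 fold change 1.16, SE 0.12, adjusted p 0.0146 by limma and 0.0240 without the block). Chd2 rose by 0.76 (adjusted p 0.0244), and Chd9 fell by 0.89 (0.0212). Chd1l, a remodeller that PARP activity recruits to DNA breaks, gave 513, 584 and 529 at 1 Gy, against 953, 981 and 1031 at 0 Gy (log2 fold change -0.87, SE 0.12, adjusted p 0.0185 by limma and 0.0304 without the block). Mbd2, a methyl-CpG binding protein, fell by 0.54 (adjusted p 0.0464).

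Of 20 tested INO80 and SRCAP genes 2 rose and 0 fell, the subunit gene Ino80c (0.57, adjusted p 0.0356 by limma) and the ATPase gene Srcap (0.58, adjusted p 0.0382). Polycomb products silence genes through histone marks and oppose SWI/SNF in flies and mammals. Of 22 tested Polycomb genes, 4 rose (18.2%) and 2 fell (9.09%), beside 6.62% and 14.7% of all genes. Pcgf5 gave 1533, 1648 and 2945 at 1 Gy, against 807, 550 and 637 at 0 Gy, with the widest rise in line 3 (log2 fold change 1.57, SE 0.27, adjusted p 0.0277 by limma and 0.0475 without the block). Aebp2, a cofactor of PRC2, rose by 0.69 (adjusted p 0.0376), while the CBX genes Cbx6 and Cbx8 fell by 0.97 and 0.72 (adjusted p 0.0385 and 0.0252). Ezh2, the PRC2 methyltransferase, rose by 0.68 (SE 0.15, adjusted p 0.0445 by limma), and its partner Eed rose by 0.50 (SE 0.11, adjusted p 0.0452). Mbd2, Ezh2, Eed, Bcl7a and Gatad2a were named after their values were seen.

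Over these 5 lists of 99 genes, 88 were tested. On the brightest probe set 10 rose (11.4%) and 6 fell (6.82%), beside 6.62% and 14.7% of all genes. Without the block, 3 of the 16 calls were made, those of Chd4, Chd1l and Pcgf5. The lists were not compared with each other or with the 10 members by a test.

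**Figure D4:**
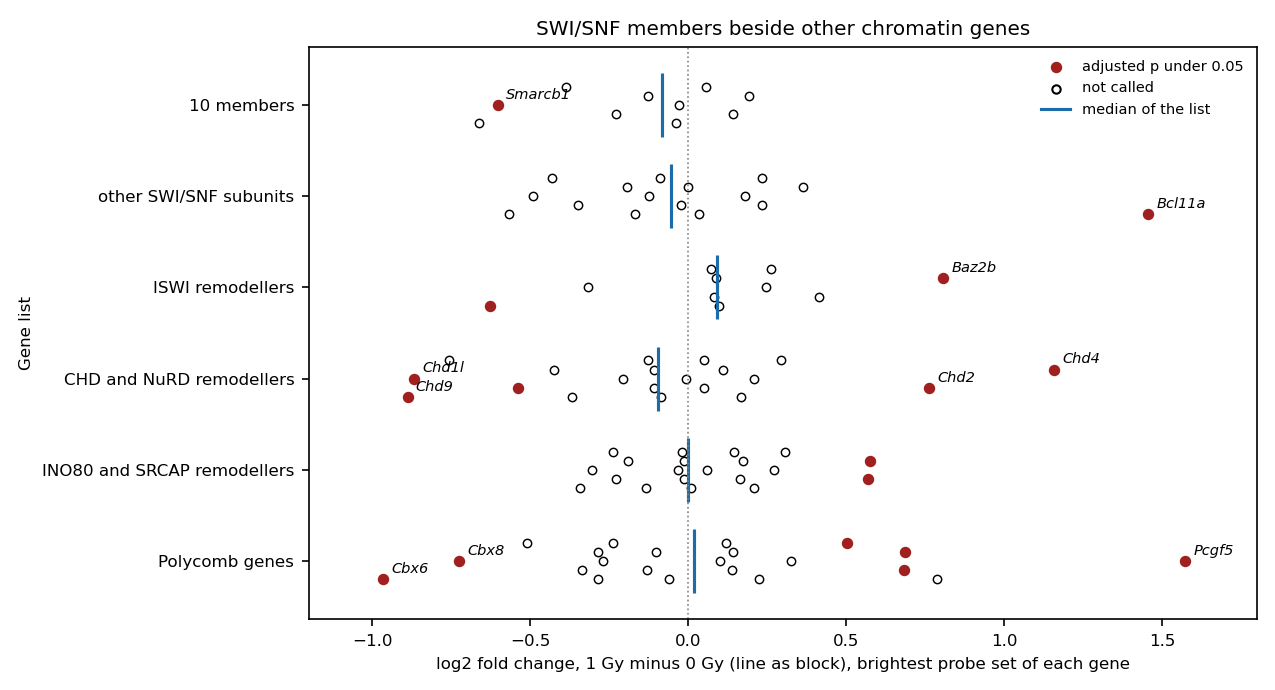
Log2 fold change at 1 Gy minus 0 Gy (x axis) on the brightest probe set of each tested gene, by gene list (y axis), filled where the adjusted p by limma with the line as a block is under 0.05, with a bar at the median of each list. Smarcb1 is the 1 filled point among the members, Bcl11a the 1 among the other SWI/SNF subunits, and the medians lie between -0.10 and 0.09.

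The cell identity was checked on marker genes. Of 11 pre-B cell markers 9 were tested, with summed signals of 141770 to 193991 at 1 Gy and 157306 to 179159 at 0 Gy. The T cell and stromal markers stayed under 100 on every array, with sums over their probe sets of 128 to 189 at 1 Gy and 101 to 211 at 0 Gy for T cells, and of 170 to 203 at 1 Gy and 110 to 157 at 0 Gy for stroma. Myeloid sums were 403 to 549 at 1 Gy and 390 to 434 at 0 Gy, with 2 of 7 markers tested, and erythroid sums were 264 to 407 at 1 Gy and 349 to 431 at 0 Gy, with 1 of 5 tested. Each array had 41.7% to 43.8% of its probe sets at 100 or above and a median signal of 51.6 to 59.4.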

How the data were processed

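Total RNA was hybridised to Affymetrix whole-genome mouse arrays, 1 per line and dose. The values the authors deposited are intensity signals on a linear scale, 1 per probe set. The submitters' processing notes name MAS5, and the mean is 500 on every array once 2% of the probe sets are trimmed from either end. The study's own analysis used RMA, quantile normalization and ANOVA, which are not in these values. The labels name the IVT Express kit for amplification, and the paper another protocol.

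Signals under 1 were set to 1 and log2 transformed. A probe set was kept where any array reached 100. The test was limma (version 3.58.1, R 4.3.3), with the line as a block, Benjamini-Hochberg adjustment over all 21762 and calls at an adjusted p under 0.05. Deviations from the dose means of arrays with the same replicate number, which marks the line in the series' design, correlated at 0.668 to 0.781 (3 pairs), against -0.495 to -0.0525 for different numbers (6 pairs). The deviations cancel out over the arrays of a dose, so that positive values for the same number push the others to negative ones. The contrast between the pairs is therefore partly fixed by the arithmetic. The platform's annotation (45037 probe sets) pairs 34945 with a single gene and 932 with several, which were left unnamed, 9160 are unnamed here, and 64 controls were left out. A gene is represented by its brightest probe set, and levels of different probe sets are not compared. The number of arrays limits the precision.

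The members and gene lists were chosen with earlier results of these data known. Smarcb1 is on the study's own list of changed genes, which came from these same arrays, and its change was known when it was picked. All member probe sets are reported, with up to 4 called genes of the largest change per other list and the 5 genes most like Smarcb1 by Pearson's r. The alternatives were no block, no filter, the minimum of 100 on at least 3 arrays, quantile normalization, median scaling, log2 of the signal plus 16, a floor of 100, a trend in the variance prior, the methods' test (with a minimum of 1.5-fold) before and after Benjamini-Hochberg adjustment, averaging a gene's probe sets, and leaving out each line. The code was tested on simulated data.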

Additional observations from a re-analysis of the deposited data

How the results depend on the processing

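The fall of Smarcb1 kept its direction in all 14 alternatives, between -0.78 and -0.52 on the log2 scale, and its call in 8. Adjusted p ran from 0.00430 to 0.293 over all settings. Among the 8 was the methods' test before adjustment, which calls on the unadjusted p with a minimum of 1.5-fold. At -0.60 each time, the call was lost without the replicate block (adjusted p 0.0757), with no filter on dim probe sets (0.293) and with the methods' test after Benjamini-Hochberg adjustment (0.0828). It was also lost without replicate 1, 2 or 3 (-0.67 to -0.52, adjusted p 0.113 to 0.135). Smarca4 was negative in all 14 (-0.56 to -0.24) and called in 2. Smarca2 was negative in all 14 (-0.88 to -0.53) and called in 4, the methods' test before adjustment among them (adjusted p 0.172 for that test).

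Of the members, 1 gene was called lower. It was 0 without the replicate block, 0 with no filter, 0 with the methods' test after adjustment and 0 to 0 without each replicate. It was 2 with a minimum of 100 on 3 arrays, with a trend and with the methods' test (Smarcb1 and Smarca2 each time), 2 with quantile normalization (Smarcb1 and Smarca4), and 3 with the mean of all probe sets (Smarcb1, Smarca4 and Smarca2). The count called higher was 0 in all. In the other chromatin lists, the 10 calls higher became 2 without the block, 0 with no filter and 2 with the methods' test after adjustment, and the 6 lower became 1, 0 and 2, with 12 under a trend, and both were 0 to 0 without each replicate. The 0 calls between lines became 2 under a trend. Of 273 other values for single member probe sets, 253 kept the call or its absence, 13 lost and 7 gained the call. A change of sign in a probe set without a call was counted as kept. Of the values for probe sets called in the main fit, 0 changed sign.

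Over all probe sets, the 3974 calls became 975 without the block, 0 with no filter (6968 at an unadjusted p under 0.05), 6121 under a trend and 352 with the methods' test after adjustment. Leaving out line 1, 2 or 3 gave 0 (6570 at an unadjusted p under 0.05), 0 (6460) and 299 calls by limma. With 2 lines left, the tests rest on 4 arrays, and what causes the other losses was not tested. Dim probe sets, with signals under 100, are limited by their signal over background.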

Other observations

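Among the marker genes used to check the cell type, Spib, an ETS factor of B cells, gave 29466, 16216 and 29184 at 1 Gy, against 16786, 8029 and 16247 at 0 Gy in lines 1, 2 and 3. It rose in each line, with a log2 fold change of 0.89 (SE 0.12) and an adjusted p of 0.0180 by limma, and line 2 was lowest at both doses, so that the doses overlapped (adjusted p 0.242 without the block). The myeloid marker Itgam gave 262, 342 and 235 at 1 Gy, against 163, 162 and 130 at 0 Gy (log2 fold change 0.87, SE 0.13, adjusted p 0.0227 by limma, 0.0680 without the block). Csf1r, another myeloid marker, gave 22.01, 33.6 and 45.0 at 1 Gy, against 32.0, 55.8 and 117 at 0 Gy (log2 fold change -0.88, SE 0.20, adjusted p 0.0478 by limma, 0.379 without the block). Csf1r entered the test only through line 3 at 0 Gy, the 1 array on which it reached 100.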
